A study of Homo sapiens with 8 samples.

Results

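The ATF4 amino acid response and the cytosolic aminoacyl-tRNA synthetases were followed here in 41 genes, picked by gene name among the 16383 genes of a count table. All 41 were found there, 39 of them also in a table of FPKM values, which held neither ASNS nor NUPR1. FPKM values are read fragments scaled by gene length and for each library. By role they fell into 13 stress-responsive factors, 7 enzymes of serine and amino acid metabolism, 4 amino acid transporters and 17 synthetases. RNA came from MDA-MB-231, an established human line of triple-negative breast cancer, with 4 libraries from cells given 5 µM c-di-GMP for 24 h and 4 from cells given the vehicle, phosphate-buffered saline, for the same time. The labels name no genetic change in either group, both were kept in the same serum-supplemented medium, and c-di-GMP is a cyclic dinucleotide messenger of bacteria that the innate immune adaptor STING binds. Separate cultures for the libraries of a group are not stated in the labels, so a p-value here reflects the spread among these particular libraries, which may be technical.

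ATF4 is a transcription factor whose mRNA is translated better when the initiation factor eIF2α is phosphorylated, as happens when amino acids run short or unfolded protein builds up in the endoplasmic reticulum. With partners of the C/EBP family it binds composite C/EBP-ATF elements and drives genes that make, import and charge amino acids, together with regulators such as DDIT3, TRIB3 and CHAC1. Much of its control is over translation, so that its mRNA level is not a measure of its protein.

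The composite element was searched as TGATGNAAN on both strands, with N for any base, in the window from 250 bases before to 50 bases after each gene's RefSeq start on GRCh38.p14. It was found in the windows of 10 of the 34 members that the promoter table held, or 29.4%, against 1002 of 27305 promoters in that table, or 3.67%. NUPR1, PSPH, SHMT2, SLC7A11, LARS, VARS and YARS had no entry. Alternative starts of a gene were not searched. The match is shown for ASNS, a well-known ATF4 target, and for the 5 members with a match whose RNA fell in the comparison of 7 libraries. Capitals mark the 9 matching bases, given 5′ to 3′ on the strand of the gene. Where the capitals end in ATCA, the element lies on the opposite strand.
ASNS: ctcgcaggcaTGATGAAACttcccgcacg, chr7:97872458-97872486, minus strand
CHAC1: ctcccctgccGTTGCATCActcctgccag, chr15:40953251-40953279, plus strand
SLC3A2: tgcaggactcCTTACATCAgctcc, chr11:62881725-62881748, plus strand
AARS: ttttctcgcaGTTGCATCAgccaagttag, chr16:70289676-70289704, minus strand
CARS: cggggcggcgGTTGCATCAgattctagga, chr11:3057408-3057436, minus strand
MARS: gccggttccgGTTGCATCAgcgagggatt, chr12:57488053-57488081, plus strand
The other matches were in ATF3, IARS, NARS and TARS. A match describes the letters in the window and does not show that a factor binds there.

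Each library held 16151360 to 18040010 counts on the listed genes. By these totals alone, 3 counts correspond to 0.166 to 0.186 CPM, the count scaled to a common library size. Gene levels given below are scaled further between libraries by TMM, so this floor does not hold for them, least of all in vehicle replicate 3. One vehicle library, replicate 3, differed widely from the rest, with 465 listed genes at 0 counts, against 2 to 9 in each other library. The biological coefficient of variation was 36.4% with all 8 libraries and 4.52% without that one. Among the 7 libraries the change with treatment also followed the GC content of the transcript. Calls are therefore given for all 8 libraries, for the 7 without vehicle replicate 3, and for these 7 after each library's GC trend was removed. VIM, a mesenchymal marker of the line, lay at 607 to 2198 CPM over the 8 libraries, and among epithelial genes the cadherin CDH1 lay at 1.61 to 3.88 CPM, EPCAM at 11.1 to 58.8 CPM and the keratin KRT18 at 248 to 651 CPM. Vehicle replicate 3 departed on these markers too, with EPCAM at 22.5 FPKM against 4.36 to 5.94 FPKM in the other 7 libraries and VIM at 411 FPKM against 116 to 148 FPKM. Other mesenchymal genes did not all follow VIM in that library. CD44 was higher, at 101 against 79.1 to 82.9 FPKM. AXL was lower, at 77.7 against 206 to 241 FPKM, as were MSN, at 37.3 against 169 to 181, and ZEB1, at 3.19 against 7.42 to 8.82.

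**Figure D1:**
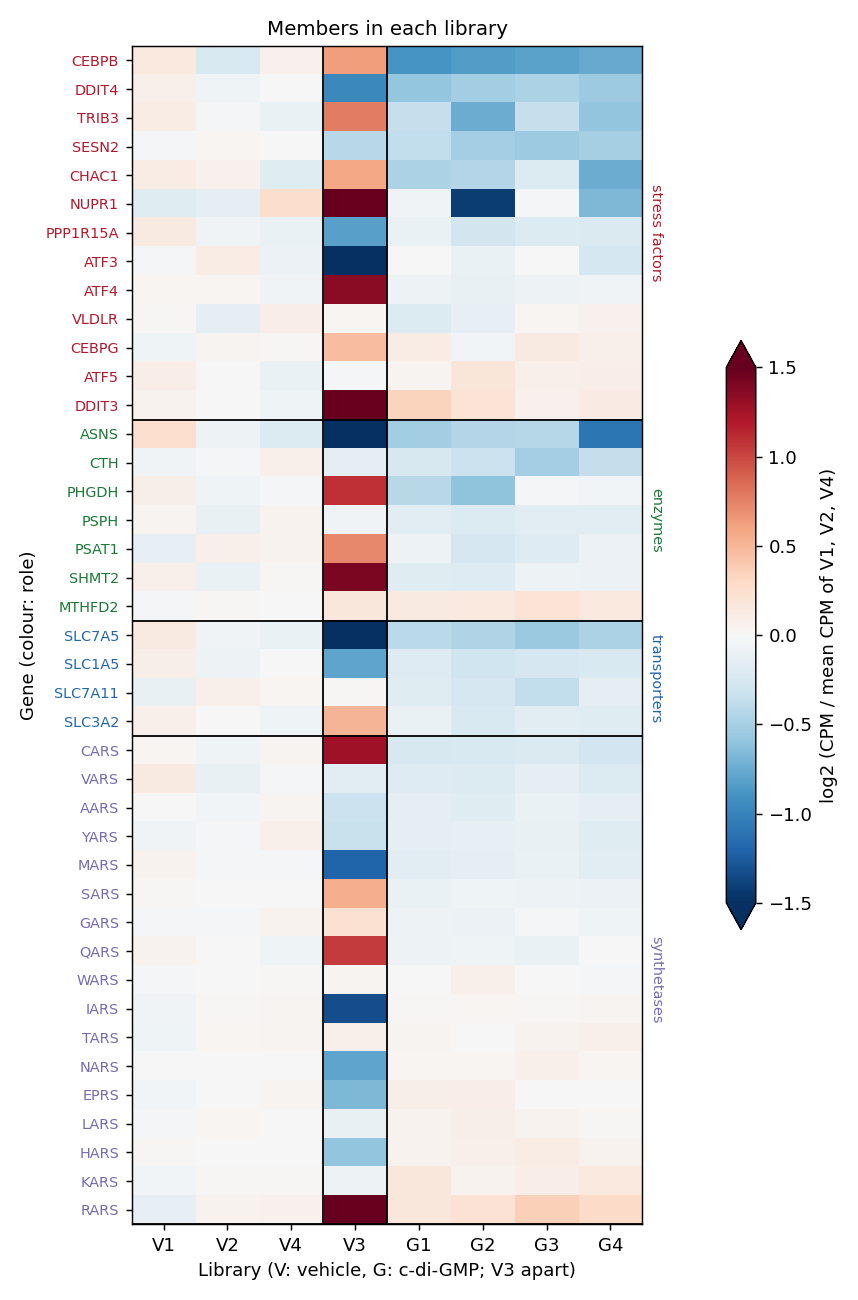
Colour shows the log2 ratio of the CPM of each member (rows, grouped by role) to its mean over vehicle replicates 1, 2 and 4, in each of the 8 libraries (columns, V for vehicle and G for c-di-GMP). The column of vehicle replicate 3 is dark red or dark blue for many members, while the other vehicle columns are pale and the c-di-GMP columns are blue for CEBPB, DDIT4, TRIB3, SESN2 and SLC7A5.

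With all 8 libraries no member passed an adjusted p of 0.05 in edgeR's quasi-likelihood test, Benjamini-Hochberg adjusted, and the called share of all 15415 genes tested was 0%. The smallest adjusted p of a member was 0.623, and 6 members had an unadjusted p under 0.05, namely CEBPB, TRIB3, CHAC1, SESN2, CTH and SLC7A11, all lower with c-di-GMP. Over all genes 960 had such a p. DESeq2's Wald test on the same 8 libraries called 1 member, CEBPB. By level, 9 members were lower in every c-di-GMP library than in every vehicle library, which held for 7.29% of all genes. They were CEBPB, TRIB3, CHAC1, PSPH, CTH, SLC7A11, SLC3A2, CARS and SARS. The synthetases HARS, KARS and NARS were higher without overlap, which held for 6.93% of all genes.

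Vehicle replicate 3 lay outside the range of the other 7 libraries for 32 of the 41 members. It was below all of them for 15 members, as it was for 45.6% of all genes tested, and above all of them for 17, as for 42.1% of all genes. ATF4 itself stood at 466 CPM in that library, 2.56 times the mean of the other vehicle libraries. ATF3, an ATF4 target, had 0.179 CPM there against 7.10, 7.88 and 6.84 CPM in the other vehicle libraries. RARS, the arginyl-tRNA synthetase, reached 501 CPM, 4.66 times their mean. Members of the same role lay on opposite sides in it, since CARS, QARS and RARS were above the other vehicle libraries and MARS, IARS and NARS below them.

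Without vehicle replicate 3, 19 of the 41 members fell with c-di-GMP in edgeR's quasi-likelihood test, most of them by modest amounts, where 16.2% of all 15647 genes tested fell, and 2 rose, RARS and MTHFD2, where 13.5% of all genes rose. The members' median log2 fold change was -0.14, against 0.00 over all genes. For 39 members the change was under 1.5-fold, and the exceptions were CEBPB and ASNS, of which ASNS did not pass. Levels of the groups did not overlap for 20 members that were lower, against 18.3% of all genes, and for 6 that were higher, against 17.3%. RNA from cultured cells was measured in bulk, so that fewer cells expressing a gene and less of its RNA per cell cannot be told apart.

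With the GC trend removed, 10 members fell, against 6.62% of all genes, and 2 rose, against 8.58%. The members' median was then -0.06. Levels did not overlap for 16 members that were lower, against 10.6% of all genes, and for 5 that were higher, against 12.8%. CEBPB, TRIB3, SESN2, DDIT4, PSAT1, PSPH, CTH, SLC7A11, SLC7A5 and CARS fell with and without the correction, as did 4.94% of all genes. RARS rose in both, as did 4.95% of all genes. The falls of CHAC1, PPP1R15A, SHMT2, SLC3A2, SLC1A5, AARS, MARS, VARS and YARS and the rise of MTHFD2 were lost with the correction, and ATF5 passed as a rise only after it. No member was called in opposite directions.

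Vehicle replicate 3 also changed the size, and for 2 of the 21 members called in the 7 libraries the sign, of the log2 fold change. MARS and RARS turned in sign with all 8 libraries. The changes of DDIT4, SLC7A5, SLC1A5 and PPP1R15A, which were low in that library, came to -0.34, -0.21, -0.08 and -0.03 with it. Those of TRIB3, SHMT2, PSAT1, SLC3A2 and CARS, which were high in it, came to -0.73, -0.63, -0.37, -0.31 and -0.68. None of these passed with all 8 libraries.

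**Figure D2:**
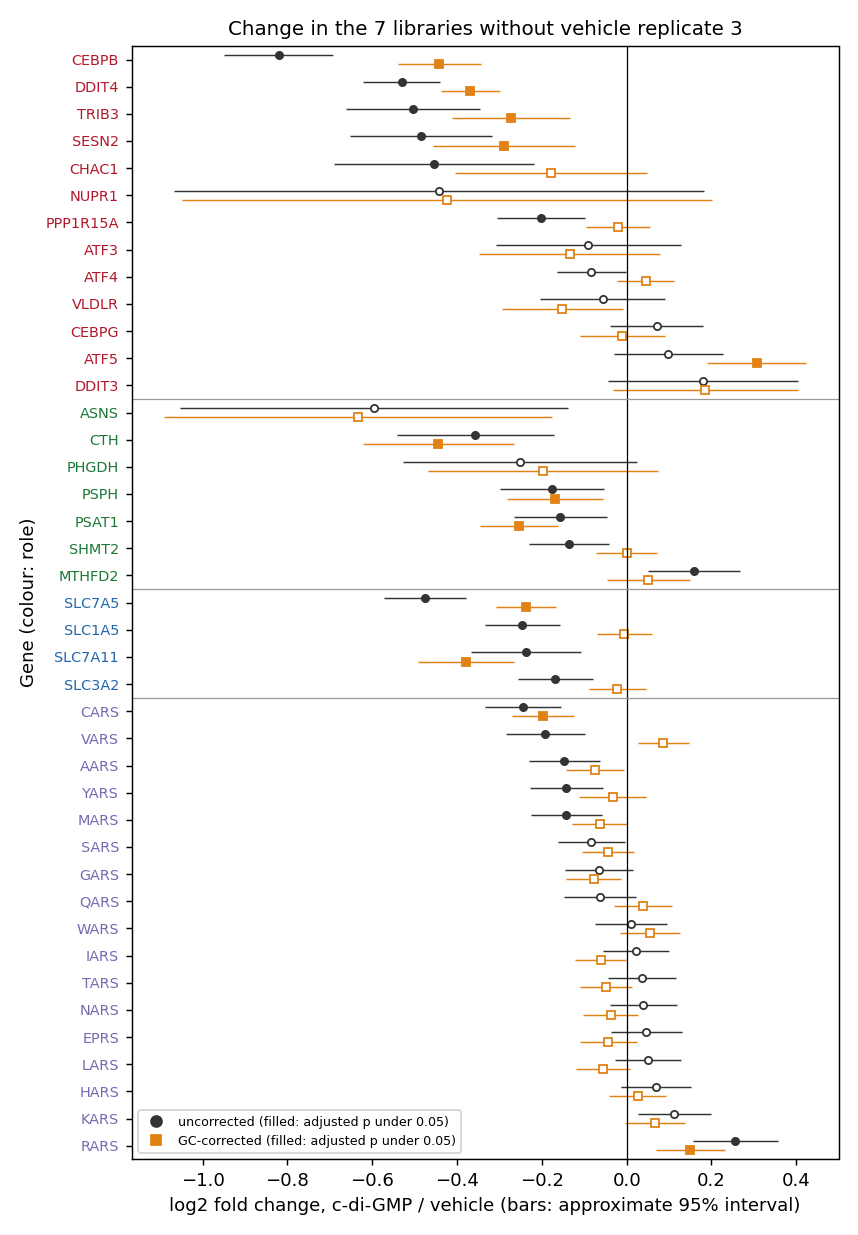
Log2 fold change (horizontal axis) of each member with its approximate 95% interval in the 7 libraries, uncorrected (black circles) and GC-corrected (orange squares), filled where the adjusted p of edgeR's quasi-likelihood test is under 0.05. Of the 41 members, 19 are filled and left of 0 without correction and 10 with it.

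Levels in single libraries are CPM scaled by TMM over all 8 libraries, which puts vehicle replicate 3 on the same scale. Log2 fold changes, each with its standard error (SE), and adjusted p-values come from that edgeR test, Benjamini-Hochberg adjusted over all genes, in the 7 libraries unless all 8 are named.

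Among the stress factors 6 of 13 fell and 0 rose without GC correction, with a median of -0.20, and 4 fell and 1 rose with it. Over all genes 16.2% fell and 13.5% rose without correction, and 6.62% fell and 8.58% rose with it. The 6 that fell, and ATF5, which rose with correction, all have at least 55% GC. In that class 44.0% of all genes fell and 2.01% rose without correction, and 8.86% fell and 12.1% rose with it. CEBPB, a bZIP partner of ATF4 that also serves the interleukin-6 and acute-phase responses, had 92.0, 71.2 and 87.1 CPM in vehicle replicates 1, 2 and 4 and 45.3, 46.6, 47.8 and 49.5 CPM with c-di-GMP. Every c-di-GMP library lay below every vehicle library, vehicle replicate 3 included, which was the highest of all at 129 CPM. Mean levels were 83.4 ± 10.8 CPM without c-di-GMP (SD, n = 3) and 47.3 ± 1.76 CPM with it (SD, n = 4), and CEBPB fell by 0.82 ± 0.07 on the log2 scale (SE, adjusted p = 7.87e-09 by edgeR). The GC content of its transcript, 66.2%, was the highest of all members, and with the GC trend removed the fall was -0.44 ± 0.05 (adjusted p = 1.45e-06 by edgeR). With all 8 libraries its log2 fold change was -1.003 ± 0.18 (adjusted p = 0.623 by edgeR).

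DDIT4 (REDD1), which restrains the growth kinase complex mTORC1 under stress, measured 139, 126 and 132 CPM in vehicle replicates 1, 2 and 4, against 88.4, 92.1, 95.4 and 90.6 CPM after c-di-GMP. The 7 libraries split cleanly by treatment, but vehicle replicate 3 at 67.5 CPM lay below every c-di-GMP library. The mean fell from 132 ± 6.56 to 91.6 ± 2.96 CPM (SD, n = 3 and 4), with a log2 fold change of -0.53 ± 0.05 (adjusted p = 2.43e-08 by edgeR) and -0.37 ± 0.04 after GC correction (adjusted p = 9.99e-08 by edgeR). The annotated antisense RNA DDIT4-AS1 covers 41.2% of the exon bases of DDIT4, and whether the library preparation kept strand is not stated, so part of these counts may belong to it.

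TRIB3, a pseudokinase that binds ATF4 and dampens its activity, measured 34.2, 31.0 and 29.5 CPM in vehicle replicates 1, 2 and 4, 53.8 CPM in vehicle replicate 3, and 24.9, 18.8, 24.8 and 20.9 CPM with c-di-GMP. The c-di-GMP libraries were the 4 lowest of the 8. Its log2 fold change was -0.50 ± 0.08 (adjusted p = 5.06e-05 by edgeR), and -0.27 ± 0.07 with GC correction (adjusted p = 0.009 by edgeR). SESN2, a leucine sensor that restrains mTORC1, had 13.8, 14.4 and 14.2 CPM in the 3 vehicle libraries and 10.9, 9.95, 9.71 and 9.99 CPM with c-di-GMP. Vehicle replicate 3, at 10.6 CPM, fell within the range of the c-di-GMP libraries, below the other vehicle libraries. SESN2 fell by 0.48 ± 0.09 on the log2 scale (adjusted p = 1.53e-04 by edgeR) and by 0.29 ± 0.09 after correction (adjusted p = 0.0216 by edgeR). The corrected call was lost without vehicle replicate 2 or 4 or c-di-GMP replicate 3 or 4, with an adjusted p by edgeR of 0.0145 to 0.0881 over the libraries left out.

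CHAC1, which degrades glutathione, fell by 0.45 ± 0.12 without correction (adjusted p = 0.00582 by edgeR) and had -0.18 ± 0.12 with it (adjusted p = 0.34). PPP1R15A (GADD34), the phosphatase subunit that reverses eIF2α phosphorylation, likewise went from a fall of 0.20 ± 0.05 to -0.02 ± 0.04. Neither passed once the GC trend was removed.

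ATF4 mRNA did not pass in any of the 3 fits. It had 185, 186 and 175 CPM in vehicle replicates 1, 2 and 4 and 172, 168, 173 and 175 CPM with c-di-GMP, so that the lowest vehicle library and the highest c-di-GMP library all but coincided. The log2 fold change was -0.08 ± 0.04 without GC correction, with an approximate 95% interval of -0.16 to -0.00. That interval is slightly too narrow, as the unadjusted p was 0.0547 by edgeR. With correction the change was 0.05 ± 0.03, with an interval of -0.02 to 0.11. With all 8 libraries the value was -0.55 ± 0.33 with 466 CPM in vehicle replicate 3, and it did not pass (adjusted p = 0.623 by edgeR).

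The remaining stress factors gave no call without GC correction. DDIT3 (CHOP), a pro-apoptotic partner of ATF4, had a log2 fold change of 0.18 ± 0.11, and -0.88 ± 0.60 with all 8 libraries, where vehicle replicate 3 was at 32.7 CPM, and 27.2% of its exon bases overlap MARS on the opposite strand. ATF5, another ATF4-induced factor, stood at 0.10 ± 0.07 without correction and rose by 0.31 ± 0.06 with it (adjusted p = 7.55e-04 by edgeR), and 21.2% of its exon bases overlap NUP62 on the opposite strand. ATF3 at -0.09 ± 0.11, CEBPG at 0.07 ± 0.06, VLDLR at -0.06 ± 0.08 and the scarce NUPR1 at -0.44 ± 0.32 did not pass before or after correction. The interval of NUPR1, -1.07 to 0.18, is the widest of the members.

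**Figure D3:**
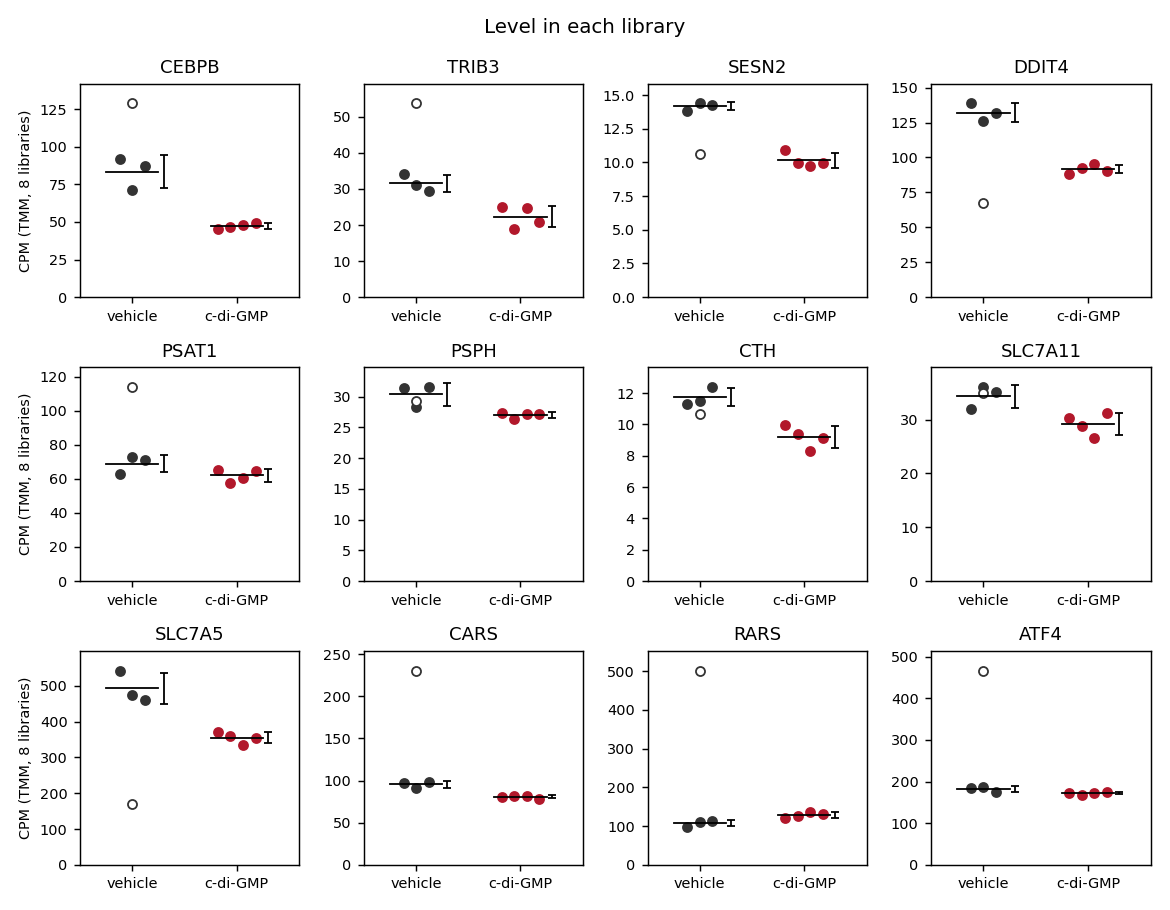
Level of the 11 members called in the same direction with and without GC correction, and of ATF4, in each library (vertical axes, CPM from 0). Filled black points are vehicle replicates 1, 2 and 4, the open point is vehicle replicate 3 and red points are c-di-GMP libraries; lines and bars give mean and SD without the open point. For CEBPB the c-di-GMP points lie between 45.3 and 49.5 CPM, below all vehicle points.

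Of the 7 enzymes of serine and amino acid metabolism, 4 fell and 1 rose without correction and 3 fell with it, with medians of -0.18 and -0.20. Of all genes 16.2% fell and 13.5% rose without correction, and 6.62% fell with it. PSAT1 makes phosphoserine, the middle step of serine synthesis, and had 63.1, 72.5 and 71.3 CPM in vehicle replicates 1, 2 and 4, 114 CPM in vehicle replicate 3, and 65.4, 57.8, 60.3 and 64.8 CPM with c-di-GMP. Vehicle replicate 1 lay among the c-di-GMP libraries, so the groups overlapped. The log2 fold change was -0.16 ± 0.06 (adjusted p = 0.0374 by edgeR) and grew to -0.25 ± 0.05 with GC correction (adjusted p = 4.41e-04 by edgeR), where the corrected levels did not overlap. PSPH, which completes serine synthesis, had 31.4, 28.2 and 31.6 CPM in these vehicle libraries, 29.3 CPM in vehicle replicate 3, and 27.3, 26.3, 27.2 and 27.1 CPM with c-di-GMP. All vehicle libraries were above all c-di-GMP libraries by a narrow margin. Its log2 fold change was -0.18 ± 0.06 (adjusted p = 0.035 by edgeR), and -0.17 ± 0.06 with correction (adjusted p = 0.0484 by edgeR). The call of PSPH was lost when any of the 7 libraries but vehicle replicate 2 was left out, with an adjusted p by edgeR of up to 0.132, and 0.219 with correction. That of PSAT1 was lost only without correction. Leaving out vehicle replicate 2 or 4 or c-di-GMP replicate 2 or 3 ended it, with an adjusted p by edgeR of up to 0.142. Without correction both calls were also lost with DESeq2's Wald test and with a block on replicate number. That of PSAT1 was lost with limma on the FPKM values too.

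CTH, the lyase that releases cysteine from cystathionine, had 11.3, 11.5 and 12.4 CPM in vehicle replicates 1, 2 and 4, 10.6 CPM in vehicle replicate 3, and 9.95, 9.40, 8.27 and 9.13 CPM with c-di-GMP. No c-di-GMP library reached the lowest vehicle library. CTH fell by 0.36 ± 0.09 on the log2 scale (adjusted p = 0.00581 by edgeR) and by 0.44 ± 0.09 with correction (adjusted p = 0.00118 by edgeR). ASNS, the asparagine synthetase and a classic ATF4 target whose element is printed above, was scarce, with 2.30, 1.83 and 1.67 CPM in these vehicle libraries, 0.268 CPM in vehicle replicate 3, and 1.35, 1.42, 1.44 and 0.913 CPM with c-di-GMP. The 3 vehicle libraries were above the c-di-GMP libraries and vehicle replicate 3 far below them. Its log2 fold change of -0.60 ± 0.23 did not pass (adjusted p = 0.0565 by edgeR), nor did the corrected one of -0.63 ± 0.23 (adjusted p = 0.0675). A gene annotated on the same strand, AC079781.5, shares 44.6% of the exon bases of ASNS and could have taken or barred its reads, so the level of ASNS is uncertain. AC079781.5 had a log2 fold change of -0.68 ± 0.23 (adjusted p = 0.0292 by edgeR), and -0.68 ± 0.23 with correction (adjusted p = 0.0472 by edgeR).

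The mitochondrial folate enzymes went opposite ways without correction and neither passed with it. SHMT2, which splits serine into glycine and a one-carbon unit, fell by 0.14 ± 0.05 (adjusted p = 0.0333 by edgeR) and had -0.00 ± 0.04 with correction. MTHFD2, the next enzyme of that pathway, rose by 0.16 ± 0.06 (adjusted p = 0.0328 by edgeR) and had 0.05 ± 0.05 with it. Both uncorrected calls were lost without vehicle replicate 1 or 4 or c-di-GMP replicate 1, that of SHMT2 also without c-di-GMP replicate 2, and that of MTHFD2 without c-di-GMP replicate 3 or 4, with an adjusted p by edgeR of up to 0.115 and 0.0854. PHGDH, the first enzyme of serine synthesis, had the lowest FPKM of the 39 members measured, 0.595 ± 0.0313 FPKM in vehicle replicates 1, 2 and 4 (SD, n = 3), against 31.1 ± 2.31 FPKM for PSAT1. Its log2 fold change of -0.25 ± 0.14 did not pass, with an interval of -0.53 to 0.03. Of the exon bases of MTHFD2, 27.2% overlap SLC4A5 on the opposite strand.

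All 4 transporters fell without correction, with a median of -0.24, and SLC7A5 and SLC7A11 fell with it. Of all genes 16.2% fell without correction and 6.62% with it. SLC7A5, SLC3A2 and SLC1A5 have at least 55% GC, a class where 44.0% of all genes fell without correction and 8.86% with it. SLC7A5 (LAT1), the large neutral amino acid exchanger, had the highest FPKM of the members at 103 ± 9.10 FPKM (SD, n = 3 vehicle libraries), ahead of ATF4 at 71.6 ± 2.57 and DDIT4 at 63.4 ± 3.15. In counts it had 542, 475 and 461 CPM in vehicle replicates 1, 2 and 4 and 371, 359.7, 335 and 354 CPM with c-di-GMP. These groups were far apart, while vehicle replicate 3 at 169 CPM lay below all 7. SLC7A5 fell from 492 ± 43.3 to 355 ± 14.8 CPM (SD, n = 3 and 4), or -0.48 ± 0.05 on the log2 scale (adjusted p = 2.70e-07 by edgeR). With GC correction the change was -0.24 ± 0.04 (adjusted p = 4.58e-05 by edgeR).

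SLC7A11 (xCT), the exchanger that imports cystine for glutathione, had 31.9, 36.1 and 35.0 CPM in vehicle replicates 1, 2 and 4, 34.9 CPM in vehicle replicate 3, and 30.2, 28.8, 26.5 and 31.3 CPM with c-di-GMP. All c-di-GMP libraries were below all vehicle libraries. At 35.4% its GC content was the lowest of the members, and its log2 fold change went from -0.24 ± 0.07 (adjusted p = 0.00835 by edgeR) to -0.38 ± 0.06 with correction (adjusted p = 4.89e-05 by edgeR). The uncorrected call was lost with limma on the FPKM values. SLC3A2 (4F2hc), the heavy chain that both exchangers need at the cell surface, fell by 0.17 ± 0.04 without correction (adjusted p = 0.00594 by edgeR) and had -0.02 ± 0.03 with it.

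SLC1A5 (ASCT2), a glutamine transporter, had 186, 166 and 174 CPM in vehicle replicates 1, 2 and 4 and 154, 143, 147 and 149.7 CPM with c-di-GMP. The 3 vehicle libraries were the higher ones, and vehicle replicate 3 at 101 CPM was below all 7. Its fall of 0.25 ± 0.05 on the log2 scale (adjusted p = 2.23e-04 by edgeR) came to -0.01 ± 0.03 with GC correction (adjusted p = 0.944), with an interval of -0.07 to 0.06. Of the exon bases of SLC1A5, 23.4% overlap AC008622.2 on the opposite strand.

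The 17 cytosolic synthetases, which attach each amino acid to its tRNA, had a median change close to 0. Without correction 5 fell, 1 rose and 11 were not called, with a median of 0.01, and with it 1 fell and 1 rose, with a median of -0.04. Over all genes 16.2% fell and 13.5% rose without correction, and 6.62% and 8.58% with it. The summed level of the 17 synthetases was 2948 to 3001 CPM in vehicle replicates 1, 2 and 4, 2915 to 2957 CPM with c-di-GMP and 3266 CPM in vehicle replicate 3. CARS, which charges cysteine, had 97.6, 91.1 and 98.0 CPM in these vehicle libraries and 81.0, 81.6, 82.2 and 78.6 CPM with c-di-GMP. The groups were separate, and vehicle replicate 3 was far above both at 230.4 CPM. CARS had a log2 fold change of -0.24 ± 0.05 (adjusted p = 2.77e-04 by edgeR), and -0.20 ± 0.04 with correction (adjusted p = 5.44e-04 by edgeR). With 9.40 ± 0.374 FPKM in the vehicle libraries (SD, n = 3) it had the lowest level of the synthetases, and TARS the highest at 62.8 ± 2.44 FPKM.

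RARS, which charges arginine, was the only one of these 17 synthetases to rise, without or with correction. It had 98.7, 112 and 112 CPM in vehicle replicates 1, 2 and 4 and 121, 125, 138 and 131 CPM with c-di-GMP. All c-di-GMP libraries were above these 3 and below vehicle replicate 3. Its log2 fold change was 0.26 ± 0.05 (adjusted p = 5.68e-04 by edgeR), 0.15 ± 0.04 with correction (adjusted p = 0.0135 by edgeR), and -0.68 ± 0.54 with all 8 libraries, where vehicle replicate 3 turned the sign. The corrected call was lost without vehicle replicate 1 or c-di-GMP replicate 3, with an adjusted p by edgeR of 0.00739 to 0.0858 over the libraries left out.

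AARS, MARS, VARS and YARS, the enzymes for alanine, methionine, valine and tyrosine, fell without correction by log2 values of 0.15, 0.14, 0.19 and 0.14. The call of AARS was lost without vehicle replicate 4, and that of YARS without vehicle replicate 4 or c-di-GMP replicate 4, with an adjusted p by edgeR of up to 0.0566 and 0.116. None of the 4 passed with correction, where VARS had 0.09 ± 0.03 (adjusted p = 0.0592 by edgeR), turned in sign. With all 8 libraries MARS had 0.08 ± 0.26, also turned in sign. For the other 11 synthetases the log2 fold change lay between -0.08 for SARS and 0.11 for KARS without correction, and KARS was nearest to the threshold (adjusted p = 0.0536 by edgeR). WARS, the tryptophan enzyme that interferons also induce, had 0.01 ± 0.04 with an interval of -0.07 to 0.10.

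Falls without correction were most frequent at 55% GC or more, among the members as among all genes. Of the 15 members with at least 55% GC, 12 fell and 0 rose without correction, where 44.0% of the 4422 genes of that class fell, and 5 fell and 1 rose with it, where 8.86% fell and 12.1% rose. Of the 14 members between 45% and 55%, 4 fell, against 9.79% of the class, and 2 of them with correction, against 7.30%. In the 12 members below 45% GC, 3 fell, PSAT1, CTH and SLC7A11, where 0.970% of the class fell, and MTHFD2 and RARS rose, where 26.0% did. These same 3 fell with correction, against 4.32% of that class. The source of the GC trend was not tested.

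**Figure D4:**
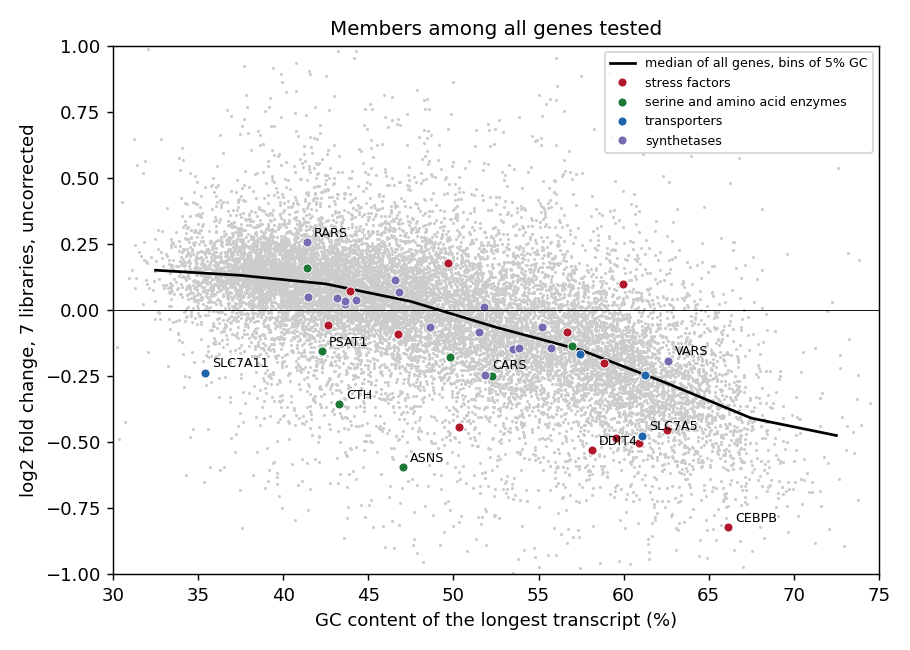
GC content of each gene's longest transcript (horizontal axis, %) against its uncorrected log2 fold change in the 7 libraries (vertical axis, drawn from -1 to 1), with all genes tested in grey, members coloured by role and the median of all genes in bins of 5% as a line. PSAT1, CTH and SLC7A11 lie below 0 at a GC content where the line is above it, and CEBPB lies below the line at the GC-rich end.

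The composite element was found in windows of members that fell and of members without a call. Of the 10 members with it, 5 fell without correction and 1 with it, CARS, with medians of -0.14 and -0.07. Of the 24 members whose window held no match, 9 fell and 2 rose without correction and 7 fell and 2 rose with it, with medians of -0.07 and -0.03. For comparison, 16.2% of all genes fell and 13.5% rose without correction, and 6.62% fell and 8.58% rose with it.

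Other genes around the pathway were taken as lists, to be read against the 13.5% of all genes that rose and the 16.2% that fell without correction, and the 8.58% and 6.62% with it. None of their genes passed with all 8 libraries. Of 16 genes for eIF2 and its control, 12 were subunits of eIF2, eIF2α kinases or subunits of its exchange factor eIF2B, and the others were GCN1, IMPACT, EIF2A and PPP1R15B. Of the 16, 7 rose and 1 fell without correction, with a median of 0.12, and 3 rose and 2 fell with it. The uncorrected fall was that of GCN1, which activates the kinase GCN2, and the corrected ones were those of EIF2AK4, which is GCN2, and PPP1R15B, an eIF2α phosphatase subunit. These 3 are named after their values were seen. The eIF2 subunit genes EIF2S1 (α) and EIF2S2 (β) rose by 0.25 ± 0.04 and 0.20 ± 0.05, and by 0.12 and 0.13 with correction. EIF2B3, a subunit of eIF2B, rose by 0.23 ± 0.06, and by 0.22 with correction. All 3 passed in both fits, with changes under 1.5-fold, but with all 8 libraries their values were -0.08, -0.37 and -0.83, opposite in sign, as for 4 of the 8 called genes of the list.

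Of 27 other ATF4 targets, 13 fell and 2 rose without correction, with a median of -0.20, and 6 fell and 2 rose with it, with a median of -0.08. Of the 15 called genes 3 turned in sign with all 8 libraries. VEGFA, the vascular growth factor, fell by 0.55 ± 0.04 (adjusted p = 4.38e-09 by edgeR), and by 0.45 with correction. PYCR1, a proline synthesis enzyme, fell by 0.43 and, with correction, by 0.18. SLC1A4, a transporter of alanine, serine and cysteine, had 21.8, 20.9 and 21.6 CPM in vehicle replicates 1, 2 and 4 and 15.3, 15.5, 15.3 and 13.6 CPM with c-di-GMP. The groups of these 7 libraries did not overlap, and vehicle replicate 3 was at 12.96 CPM. SLC1A4 fell by 0.52 ± 0.07 (adjusted p = 1.04e-05 by edgeR) and by 0.57 ± 0.07 with correction. GPT2, the mitochondrial alanine transaminase, fell by 0.31 without correction and by 0.20 with it.

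Of 13 further genes, 11 of one-carbon and methionine metabolism and the glutathione synthesis genes GCLC and GCLM, 2 rose and 1 fell without correction, and 1 rose and 2 fell with it. GCLM, named after its values were seen, was one of the 2 corrected falls, at -0.22 ± 0.04 (adjusted p = 1.55e-04 by edgeR). Without correction GCLM had -0.09 ± 0.05 and was not called (adjusted p = 0.163 by edgeR). With all 8 libraries it turned in sign, at 0.17 ± 0.30. GCLC, at 0.08 without correction and -0.00 with it, was not called. Among 6 genes for the remaining cytosolic synthetases and the scaffold proteins of the synthetase complex, FARSB, AIMP1 and EEF1E1 rose without correction and FARSA with it, with medians of 0.15 and 0.14. AIMP1 and EEF1E1 turned in sign with all 8 libraries. Of 17 mitochondrial synthetases, 1 rose and 3 fell without correction, and 0 were called with it, with medians of -0.01 and 0.01. The 3 that fell are 17.6% of the list, close to the share of all genes.

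**Figure D5:**
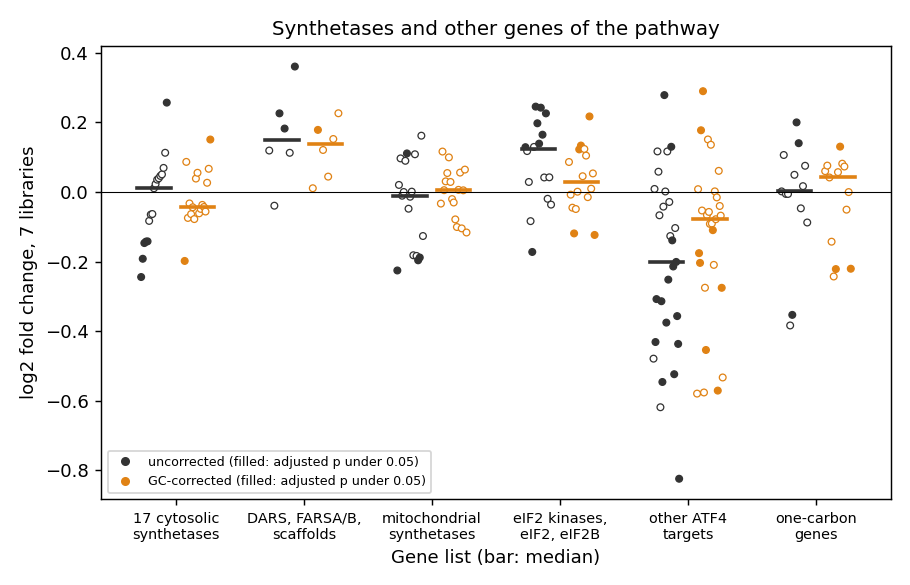
Log2 fold change (vertical axis) of each gene in the 17 synthetases and 5 other lists in the 7 libraries, uncorrected (black) and GC-corrected (orange), filled where the adjusted p of edgeR's quasi-likelihood test is under 0.05, with a bar at each list's median. The synthetases, with medians of 0.01 and -0.04, sit near 0, and the other ATF4 targets, with a median of -0.20 without correction and -0.08 with it, spread below it.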

How the data were processed

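RNA of MDA-MB-231 cells was sequenced from 4 vehicle and 4 c-di-GMP libraries, grouped by their titles. Per the submitters' processing notes, reads were handled with featureCounts 1.5.0-p3, HISAT2 2.0.5, fastp, CASAVA 1.8 and DESeq2 1.20.0. How each was used, and whether strand was kept, is not given in the sources used here. The notes name mm10, but all 16383 gene IDs and coordinates match human GENCODE release 29 (GRCh38). The authors deposited raw read counts per gene and FPKM, with 14707 genes in both tables. The lowest gene total among the counts was 55, so the tables may be the top of longer ones. For 22 genes whose names had become dates, names were restored by ID.

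Low counts were removed with filterByExpr (count of 10, total of 15), libraries were scaled by TMM, and groups compared with edgeR 4.0.16's quasi-likelihood test in R 4.3.3, with Benjamini-Hochberg adjustment over all genes and a threshold of 0.05. SEs were derived from the F statistic, and intervals are 1.96 SE to each side, which is somewhat narrower than the test implies. GC correction used as offset, for each library, the lowess fit (span 0.3) on transcript GC of how far genes lay from their mean. The FPKM values, as deposited, served for levels between genes and for limma 3.58.1 on log2(FPKM + 1). That scale understates the change of low genes. The FPKM values are scaled by gene length and for each library, in vehicle replicate 3 not by its total counts alone. The other alternatives were DESeq2 1.42.0, its size factors, no filter, a replicate block, length correction and each library left out. The scripts were tested on simulated data that held no GC trend and no outlying library, so that test does not bear on either. Members, lists, the comparison of 7 libraries and the GC correction were chosen with earlier results of these data known. Values by library are given for ATF4, for members called the same way with and without GC correction and for the 2 largest changes of each role, and from each other list up to 4 genes called in both are named. Some single genes of the one-carbon list are not reported here. Promoters are from RefSeq.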

Additional observations from a re-analysis of the deposited data

Results flagged for a closer look

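In each group of 4 libraries, the level of every member was examined for a library set far from the others, by the ratio of its gap to the group's range (critical value 0.829). This ratio was passed in 18 of 82 groups, and chance flags about 1 in 20. In 16 of the 18 the distant library was vehicle replicate 3. It was the highest vehicle library, in CPM, for ATF4 466.3, DDIT3 32.72, NUPR1 7.51, PHGDH 11.89, SHMT2 384.8, CARS 230.4, QARS 348, RARS 501.3 and SARS 230. It was the lowest, in CPM, for ATF3 0.1788, SESN2 10.64, EPRS 118.5, HARS 70.18, IARS 124.2, MARS 56.23 and NARS 95.12. The other 2 were c-di-GMP libraries, replicate 2 for PSPH with 26.3 CPM, the lowest of its group, and replicate 3 for NARS with 174.3 CPM, the highest.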

How the results depend on the processing

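With all 8 libraries the members called went from 0 to 1 with DESeq2's Wald test, and between 0 and 21 as each library was left out, where 21 was reached without vehicle replicate 3. Over all genes the same changes gave 0, 106 and 4633. In the 7 libraries the members that rose numbered 2, and 1 to 3 as each library was left out. Those that fell numbered 19, and 14 to 18, with the fewest without vehicle replicate 4. With GC correction 2 rose, and 1 to 2, and 10 fell, and 8 to 10. Without vehicle replicate 1 or 4 the genes called with GC correction went from 2378 to 1476 and 1551. Vehicle and c-di-GMP libraries with the same number did not deviate together (correlations of -0.0088 to 0.0152 in the 7 libraries, -0.0578 to 0.184 in all 8). A replicate block on these numbers left 1 member rising and 17 falling in the 7 libraries, 1 and 8 with GC correction, and 0 called in all 8. On log2(FPKM + 1), limma called 3 members higher and 13 lower in the 7 libraries, without PPP1R15A, PSAT1, SHMT2, SLC7A11, VARS and YARS. DESeq2's Wald test called 2 members higher and 17 lower in the 7 libraries, without PSAT1 and PSPH.

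Of the 21 members called in the 7 libraries, 12 were called in all 14 alternatives and 15 whichever library was left out. Calls that leaving out a library ended were those of PSAT1, PSPH, SHMT2, MTHFD2, AARS and YARS. With GC correction 9 of 12 kept their call in all 11 alternatives, the exceptions being SESN2, PSPH and RARS. No listed value of a called member reversed within a comparison. Members at a few CPM, ASNS and NUPR1, are limited by depth, and ASNS also by the exon bases it shares with AC079781.5.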
